A study of Homo sapiens with 18 samples.

Results

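The 37 genes of the human mitochondrial chromosome were followed through 18 RNA-seq libraries of NCI-H1299 cells. They were taken from a count table of 63677 Ensembl genes as all those with a symbol starting with MT-. They comprise 13 mRNAs, 2 rRNAs and 22 tRNAs. The symbol alone decided which genes were taken, but this gene group was chosen with earlier results of these data known. The number of reads on a gene was the only measurement. NCI-H1299 is an established human lung cancer line, labelled lung adenocarcinoma and used at passage 12 to 14, and total RNA was sequenced.

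There were 3 libraries of cells transfected with a TBX2 plasmid, 3 with TBX3, 3 with TBX4 and 3 with TBX5, where TBX2 to TBX5 are T-box transcription factors. The study's methods name human TBX2, TBX3 and TBX4 inserts and a mouse Tbx5 insert, given transiently by lipofection. The methods put the transfection efficiency at less than complete, with a large share of cells left untransfected, so the TBX and EV libraries mix transfected and untransfected cells. As controls, 3 libraries came from cells that received empty vector (EV), and 3 others are titled Ctl, with no treatment named in the sources used here. No source says how the 3 libraries of a group were cultured, so p-values measure the spread between these libraries, which may be technical. In bulk RNA, a smaller number of cells holding a transcript and less of it per cell cannot be told apart.

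Mitochondrial DNA is a small circle copied and transcribed inside the organelle. A single polymerase, POLRMT, with the packaging factor TFAM, reads each strand into a long RNA, and most mRNAs and rRNAs are freed when the tRNAs lying between them are cut out. The mRNAs encode core subunits of respiratory complexes I, III, IV and V, the rRNAs build the mitochondrial ribosome, and the tRNAs decode its messages.

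In the annotation of GRCh37 the circle is 16569 bases long. Of the mRNAs 12 lie on the plus strand and 1, MT-ND6, on the minus strand. Both rRNAs and 14 tRNAs are on the plus strand, and 8 tRNAs on the minus strand. The 7 tRNA genes that passed the test in a comparison below are shown because most of the called changes fell on them. Each was read from the GRCh37 reference, 5′ to 3′ on the strand of the gene, with the anticodon in capitals.
MT-TL1, leucine, chrM:3230-3304, plus: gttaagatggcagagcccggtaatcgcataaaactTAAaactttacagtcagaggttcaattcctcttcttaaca
MT-TN, asparagine, chrM:5657-5729, minus: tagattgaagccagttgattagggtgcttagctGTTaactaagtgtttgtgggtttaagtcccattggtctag
MT-TC, cysteine, chrM:5761-5826, minus: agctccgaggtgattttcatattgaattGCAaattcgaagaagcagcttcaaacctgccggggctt
MT-TY, tyrosine, chrM:5826-5891, minus: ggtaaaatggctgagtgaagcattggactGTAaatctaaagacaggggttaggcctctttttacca
MT-TH, histidine, chrM:12138-12206, plus: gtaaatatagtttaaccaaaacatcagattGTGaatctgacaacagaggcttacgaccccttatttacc
MT-TE, glutamate, chrM:14674-14742, minus: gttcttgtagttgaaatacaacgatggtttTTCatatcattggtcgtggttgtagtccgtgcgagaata
MT-TP, proline, chrM:15956-16023, minus: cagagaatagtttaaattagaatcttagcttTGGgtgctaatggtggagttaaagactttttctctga

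MT-TN, MT-TC and MT-TY are neighbours in 1 cluster, and MT-TC and MT-TY share base 5826. Counting was not set to use strand, so reads of a minus-strand gene and of RNA from the opposite strand at the same place cannot be told apart. Nor can reads of a finished tRNA be told from those of a longer RNA that still holds it.

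The libraries held 7365221 to 11743179 counts, of which 35.2% to 69.5% lay outside 3 abundant genes. These were MT-RNR1, MT-RNR2 and ENSG00000266658, a gene with no symbol in the annotation. ENSG00000266658 was lowest in TBX3 replicate c, at 10.707% of all counts with a 95% Wilson interval from 10.689 to 10.726%, and highest in TBX5 replicate b, at 53.485% (53.449 to 53.521%). Such intervals cover counting error only, because these reads carry no molecular identifiers and may be copies of each other. Each plasmid's gene had 1161 or more counts in its own 3 libraries and at most 119 in any other library. The library whose title carries the TBX4 number but the name TBX5 was grouped by its number as TBX4 replicate c, and it held 85197 counts of TBX4 and 1 of TBX5. Keratin genes KRT8 and KRT18 held 119 to 1155 counts and VIM at least 4051, while the lung markers NKX2-1, SFTPB and SFTPC held at most 9. The blood markers PTPRC and HBB and the fibroblast markers COL1A1, COL3A1 and DCN held at most 7. Over all genes, replicate c stood farthest from the other 2 libraries of its group in EV, TBX2, TBX3 and TBX4, and replicate a in TBX5.

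Because ENSG00000266658 differed so much between libraries, levels are given on 2 scales. The first is counts per 1000000 of all counts (CPM, all-count scale). The second is counts per 1000000 of those outside MT-RNR1, MT-RNR2 and ENSG00000266658 (CPM, outside scale), whose totals were 2600837 to 8091169. Tests used the TMM scaling of edgeR on all genes, with a change called at an adjusted p under 0.1. A filter kept the 15576 genes that exceeded 5 counts in 10 or more of the 18 libraries. Among them were 25 members, namely all 13 mRNAs, both rRNAs and 10 tRNAs. The 12 tRNAs below the filter held 0 to 12 counts in a library, with 11 of their 216 values at 0. A count of 0 allows up to 3 counts, or 0.371 to 1.15 CPM on the outside scale.

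All 37 genes together made up 12.1% to 23.1% of a library. Over the 18 libraries 94.8% of their counts lay on the rRNAs, 5.12% on the mRNAs and 0.0854% on the tRNAs. The 13 mRNAs took 0.934 ± 0.0758% of all counts in the controls (SD, n = 6). In TBX2 the 3 libraries had 1.21%, 0.693% and 1.10%, in TBX3 0.944%, 0.812% and 0.745%, in TBX4 0.840%, 1.03% and 1.11%, and in TBX5 0.969%, 0.733% and 0.756%. Every TBX group overlapped the controls, which ran from 0.824% to 1.01%.

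On the outside scale the mRNAs took 1.77 ± 0.258% in the controls (SD, n = 6), from 1.26% in EV replicate c to 1.94% in EV replicate b. The other 5 controls lay between 1.78% and 1.94%. The lowest share was that of TBX3 replicate c, at 1.071% (95% Wilson interval 1.064 to 1.078%), and the highest that of TBX2 replicate c, at 2.514% (2.497 to 2.532%). Within TBX2 the shares were 2.06%, 1.26% and 2.51%, so this group held values below and above nearly all controls. TBX3 had 2.02%, 2.01% and 1.07%, TBX4 1.30%, 1.60% and 1.84%, and TBX5 1.70%, 2.08% and 2.13%. The spread within these groups was as wide as the distance between them.

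**Figure D1:**
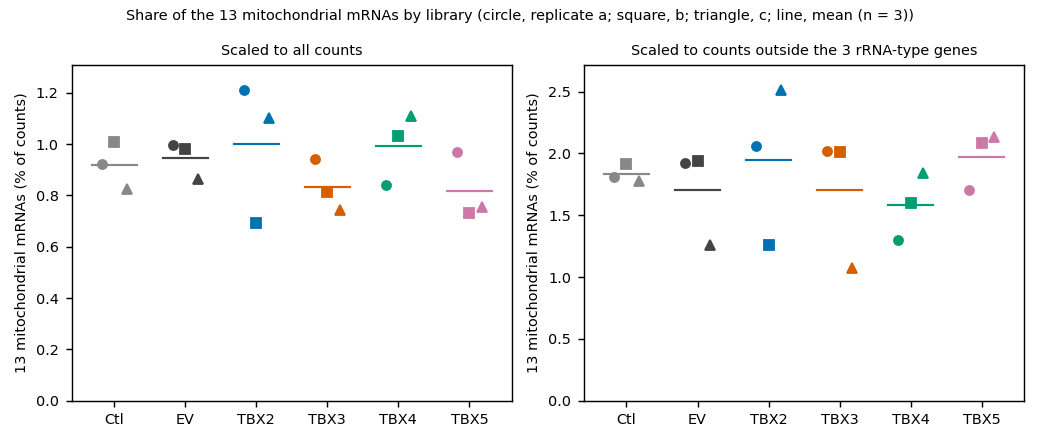
Share of counts on the 13 mitochondrial mRNAs (y axis, %) in each of the 18 libraries by group, relative to all counts (left) and to counts outside MT-RNR1, MT-RNR2 and ENSG00000266658 (right). Points are libraries and lines are means of 3; on the right EV replicate c, TBX2 replicate b, TBX3 replicate c and TBX4 replicate a lie at 1.07% to 1.30%, below the other 14.

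Levels of different members were compared per kilobase of gene on the outside scale. Among mRNAs the highest in the controls were those of complex IV (cytochrome c oxidase), with MT-CO3 at 3421 ± 270 CPM per kb, MT-CO2 at 2879 ± 394 and MT-CO1 at 2246 ± 223 (SD, n = 6). MT-ATP6, of the ATP synthase, followed at 1723 ± 329 CPM per kb. The complex I mRNAs ran from 1572 ± 302 for MT-ND4 down to 396 ± 58.1 for MT-ND3, the lowest of all. MT-ND3 starts at base 10059, right after MT-TG (to 10058), and ends at 10404, right before MT-TR (from 10405). Under the default counting, reads that reach into a neighbouring gene are not assigned. Counts of short or adjoining genes, tRNAs among them, may therefore be too low, and the order per kb carries that limit. MT-CYB, the complex III subunit, stood at 940 ± 160. The order of neighbours held in every control library except between MT-ND1 and MT-ND4L, between MT-ND2 and MT-ATP8, and between MT-ATP8 and MT-ND6. MT-RNR2, the large-subunit rRNA, reached 151601 ± 9499 CPM per kb and MT-RNR1, the small-subunit rRNA, 59650 ± 12748. Whether rRNA was depleted from the libraries is not given in the sources used here, and the rRNA values carry that limit.

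The first comparison asked which mitochondrial transcripts differed with each TBX. With TBX2, MT-RNR1 rose, 5 tRNAs rose and MT-CO3 fell. With TBX4, 3 tRNAs rose and MT-ND6 and MT-ATP8 fell. With TBX5, MT-RNR1 and 4 tRNAs rose, and with TBX3 no member passed the test. Of the 25 tested members these were 7, 5, 5 and 0, or 28.0%, 20%, 20% and 0%. Over all 15576 tested genes the called share was 32.6% with TBX2, 13% with TBX4, 12.7% with TBX5 and 14.9% with TBX3 (8.47% higher and 6.40% lower). The members' share with TBX2 was thus near the background. With TBX4 and TBX5 it rested on 5 of 25 members each, and whether it exceeded the background was not tested. With TBX3, 1 member had an unadjusted p under 0.05, and DESeq2 called 1, MT-CO3. The 4 comparisons share their 6 controls and are not independent of each other. The median log2 fold change of the 25 members was 0.19 for TBX2, 0.06 for TBX3, -0.14 for TBX4 and 0.22 for TBX5, beside a median over all genes of -0.0013, -0.0021, -0.0058 and -0.0031.

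**Figure D2:**
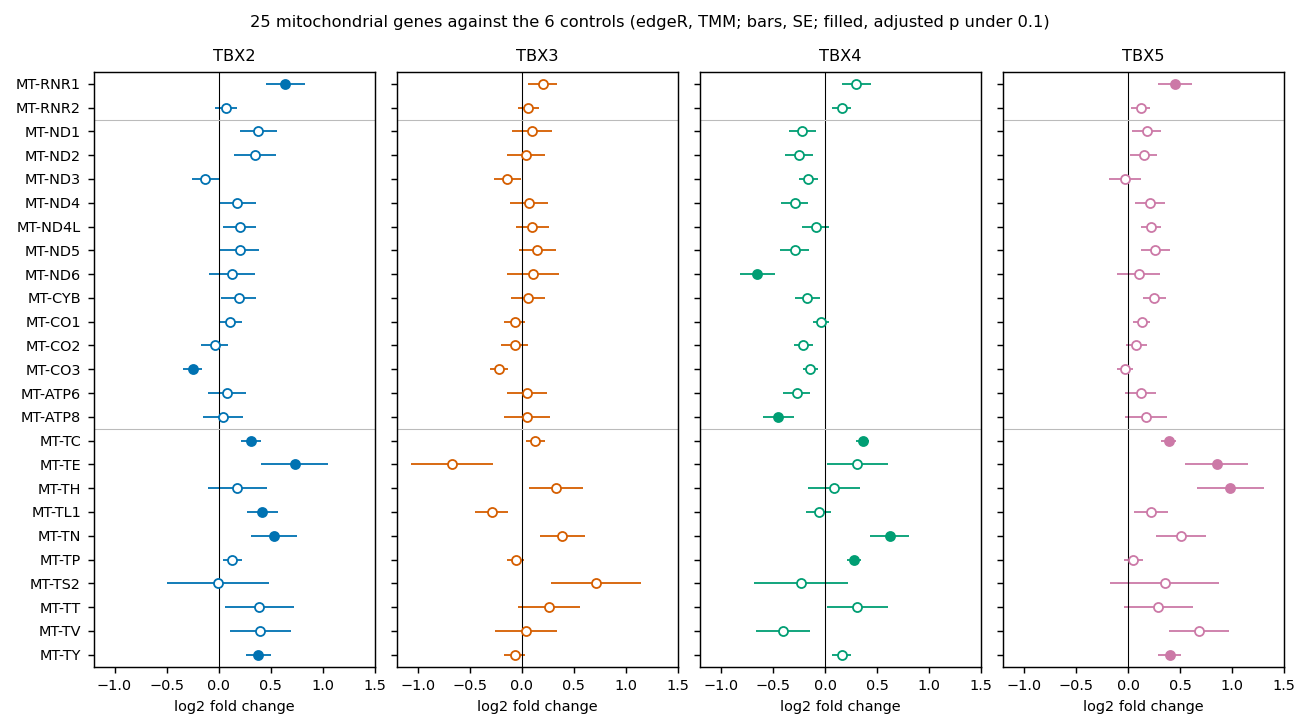
Log2 fold change against the 6 controls (x axis) of the 25 tested mitochondrial genes (rows: rRNAs, mRNAs, tRNAs) with TBX2, TBX3, TBX4 and TBX5, from edgeR with TMM scaling. Bars are standard errors and filled points have an adjusted p under 0.1: 7 genes with TBX2, none with TBX3, 5 with TBX4 and 5 with TBX5.

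Of the rRNAs, MT-RNR1 varied far more than MT-RNR2. On the outside scale MT-RNR1 ran from 37289 CPM (Ctl replicate c) to 69878 in the controls, with a median of 58716. With TBX2 it stood at 103583, 51543 and 116246 CPM, with TBX3 at 74594, 54077 and 60299, with TBX4 at 56074, 71613 and 86026, and with TBX5 at 109444, 61372 and 65675. Replicates a and c of TBX2 and replicate a of TBX5 were the highest of all 18, while TBX2 replicate b and the other 2 TBX5 libraries lay within the range of the controls. MT-RNR1 rose with TBX2 by a log2 fold change of 0.64 ± 0.19 (SE, adjusted p = 0.0148) and with TBX5 by 0.45 ± 0.16 (adjusted p = 0.0838). With TBX3 the log2 fold change was 0.20 ± 0.14 (adjusted p = 0.423) and with TBX4 0.30 ± 0.14 (adjusted p = 0.190). The call with TBX2 was lost without TBX2 replicate c (0.39, adjusted p = 0.178) and held when each other library was left out in turn. The call with TBX5 was lost without TBX5 replicate a (0.16, adjusted p = 0.559), without Ctl replicate c (adjusted p = 0.137) and without EV replicate a, b or c (adjusted p = 0.101, 0.132 and 0.118). It was also lost on the all-count scale (0.23, adjusted p = 0.535), under DESeq2 (adjusted p = 0.334), against Ctl alone (adjusted p = 0.274), in 1 fit of all libraries (adjusted p = 0.168) and with at least 10 counts in every library (adjusted p = 0.105), and the TBX2 call was lost against Ctl alone (0.61, adjusted p = 0.107).

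MT-RNR2 ran from 216734 to 253618 CPM in the controls, with a median of 238253, on the outside scale. With TBX2 it stood at 263397, 252529 and 249784 CPM, with TBX3 at 243991, 246616 and 223578, and with TBX5 at 248486, 259916 and 269643. With TBX4 it stood at 288690, 255896 and 266683 CPM, above every control on both scales. No comparison passed the test, with a log2 fold change of 0.16 ± 0.09 for TBX4 (SE, adjusted p = 0.295) and 0.06 to 0.12 for the other 3.

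The ratio of MT-RNR2 to MT-RNR1 counts does not depend on the scale. It was 3.24, 3.57 and 6.80 in Ctl and 3.81, 4.34 and 4.43 in EV. With TBX2 it was 2.54, 4.90 and 2.15, with TBX3 3.27, 4.56 and 3.71, with TBX4 5.15, 3.57 and 3.10, and with TBX5 2.27, 4.24 and 4.11. The ratio thus spanned more than a 2-fold range within TBX2 and within Ctl. In two-sided exact permutation tests on the log2 ratio, no group differed from the controls. The mean log2 difference was -0.50 for TBX2 (p = 0.190), -0.15 for TBX3 (p = 0.690), -0.14 for TBX4 (p = 0.667) and -0.32 for TBX5 (p = 0.381), exact tests with 3 libraries against 6. Adjusted over 5 comparisons each of these p-values was 0.863. EV and Ctl differed by -0.04 (exact p = 1.00). The smallest p this design allows is 0.0119 for a TBX group and 0.10 for EV against Ctl.

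**Figure D3:**
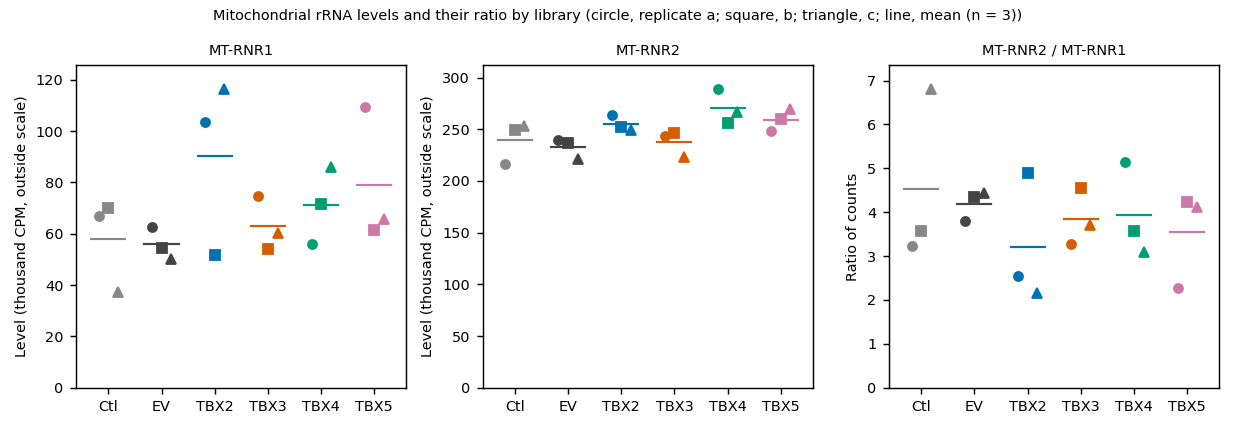
MT-RNR1 (left) and MT-RNR2 (middle) in units of 1000 CPM on the outside scale, and the ratio of their counts (right), in each of the 18 libraries by group. Points are libraries and lines are means of 3; MT-RNR1 in TBX2 replicates a and c and TBX5 replicate a exceeds 100000 CPM, and the ratio in Ctl replicate c is 6.80.

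Complex I has 7 subunits encoded here, and only MT-ND6 changed, with TBX4. MT-ND6, the 1 mRNA of the minus strand, ran from 170 CPM (EV replicate c) to 425 in the controls on the outside scale, with a median of 376. With TBX4 it stood at 195, 202 and 282 CPM, below the 5 controls other than EV replicate c. It fell by a log2 fold change of 0.65 ± 0.17 (SE, adjusted p = 0.0133), that is to about 226 ± 48.3 CPM (SD, n = 3) from 349 ± 91.9 (SD, n = 6). The call was lost without TBX4 replicate b (-0.57, adjusted p = 0.114), under DESeq2 (-0.66, adjusted p = 0.190), in 1 fit of all libraries (-0.64, adjusted p = 0.218), against EV alone (-0.49, adjusted p = 0.111) and on the all-count scale (-0.35, adjusted p = 0.105). In the TBX2 libraries it was at 361, 216 and 596 CPM, with TBX3 at 454, 495 and 147, and with TBX5 at 212, 463 and 463. Of these libraries TBX3 replicate c lay below every control, those at 361, 216 and 212 CPM within their range, and the others above it. The log2 fold changes with TBX2, TBX3 and TBX5 were 0.13 ± 0.22, 0.11 ± 0.25 and 0.10 ± 0.21, with adjusted p of 0.729, 0.850 and 0.841.

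The other 6 complex I mRNAs passed no test with any TBX. MT-ND1 had the highest log2 fold change among mRNAs with TBX2, at 0.38 ± 0.18 (SE, adjusted p = 0.129). Its 3 TBX2 libraries stood at 1855, 971 and 2444 CPM, against 833 to 1483 in the controls. MT-ND2 lay at 0.35 ± 0.20 in the same comparison (adjusted p = 0.222). MT-ND4 and MT-ND5 lay at -0.29 ± 0.13 and -0.29 ± 0.14 with TBX4 (adjusted p = 0.188 and 0.206) and at 0.21 ± 0.14 and 0.26 ± 0.14 with TBX5 (adjusted p = 0.406 and 0.266). MT-ND3 and MT-ND4L ranged from -0.16 to 0.22 over the 4 comparisons. MT-CYB, the complex III member, stood at 1220, 1318 and 1337 CPM with TBX5, above all 6 controls (731 to 1207). Its log2 fold change of 0.25 ± 0.11 did not pass (adjusted p = 0.154), and on the all-count scale it was -0.05, beside a median of -0.31 over all genes.

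Among the complex IV mRNAs, MT-CO3 fell with TBX2. It ran from 2269 to 2837 CPM in the controls on the outside scale, with a median of 2747, and stood at 2388, 1946 and 2599 with TBX2. All 3 libraries lay below the median of the controls, and 1 lay below every control. The log2 fold change was -0.25 ± 0.09 (SE, adjusted p = 0.0438), and the call was lost without TBX2 replicate a (-0.26, adjusted p = 0.101) or b (-0.14, adjusted p = 0.276), on the all-count scale (-0.24, adjusted p = 0.634) and against EV alone (-0.18, adjusted p = 0.273). With TBX3 the levels were 2373, 2425 and 1845 CPM and the log2 fold change -0.22 ± 0.09 did not pass (adjusted p = 0.115). With TBX4 and TBX5 it was -0.14 ± 0.07 and -0.03 ± 0.08 (adjusted p = 0.228 and 0.872). MT-CO1 and MT-CO2 passed no test, with log2 fold changes from -0.21 to 0.13. MT-CO3 is 1 of 6 mRNAs whose length leaves the last codon incomplete, where polyadenylation after cleavage is known to complete the stop. Its junction with MT-TG, at chrM:9976-10005 on the plus strand, is shown because it is the mRNA called with TBX2, with its last 15 bases in capitals.
MT-CO3/MT-TG: ATTGATGAGGGTCTTactcttttagtataa

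Of the complex V (ATP synthase) mRNAs, MT-ATP8 fell with TBX4. It ran from 79.7 CPM (EV replicate c) to 173 in the controls on the outside scale, with a median of 158, and stood at 87.7, 101 and 137 with TBX4. All 3 lay below the 5 controls other than EV replicate c. The log2 fold change was -0.45 ± 0.15 (SE, adjusted p = 0.0611). Without TBX4 replicate a or b the adjusted p was 0.308 and 0.247, and without Ctl replicate b or c or EV replicate a or b it was 0.102 to 0.115. The call was also lost under DESeq2 (adjusted p = 0.373), on the all-count scale (-0.16, adjusted p = 0.432), with the replicate letter as a block (adjusted p = 0.106), against EV alone (-0.28, adjusted p = 0.349) and in 1 fit of all libraries (adjusted p = 0.350). MT-ATP6 had a log2 fold change of -0.27 ± 0.13 in the same comparison (adjusted p = 0.206). With the other 3 TBXs MT-ATP8 lay between 0.04 and 0.17 and MT-ATP6 between 0.05 and 0.12, none past the test.

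The coding regions of MT-ATP8 and MT-ATP6 share 46 bases and come from 1 RNA, which is shown because reads inside the overlap are not assigned to either gene under the default counting. The overlap is in capitals, with 12 bases on either side, at chrM:8515-8584 on the plus strand.
MT-ATP8/MT-ATP6: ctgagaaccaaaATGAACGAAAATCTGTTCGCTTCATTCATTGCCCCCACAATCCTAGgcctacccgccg
MT-ATP8 is 207 bases long, so the unassigned part is a larger share of it than of MT-ATP6, at 681 bases. MT-ND4L and MT-ND4 overlap likewise, by 7 bases.

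The direction of the mRNAs as a set depended on the scale. With TBX4 all 13 mRNAs had a log2 fold change below 0 under TMM (median -0.22), but 9 of them lay above 0 on the all-count scale (median 0.06). With TBX5, 11 of 13 lay above 0 under TMM (median 0.15) and all 13 below 0 on the all-count scale (median -0.18). On that scale the median of all genes also moved, to 0.25 for TBX4, -0.31 for TBX5 and 0.20 for EV against Ctl. Relative to it, the median of the mRNAs was -0.19 for TBX4 and 0.13 for TBX5. With TBX3, 9 of 13 lay above 0 under TMM, in a range from -0.22 to 0.15, and all 13 below 0 on the all-count scale. No mRNA was called up in any of the 4 comparisons, and 1 was called down with TBX2 and 2 with TBX4. Over all tested genes 15.6% and 6.07% were called lower in these comparisons, and 6.12% with TBX5, where no mRNA was.

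EV replicate c had the lowest level of the 6 controls on the outside scale for all 13 mRNAs, and the count of called members moved when it was left out. Without it, 11 mRNAs and MT-TV were called lower with TBX4 and 3 tRNAs higher, in place of 2 mRNAs lower and 3 tRNAs higher. Without TBX4 replicate c 7 mRNAs were called lower and 2 tRNAs higher. With TBX2 replicate b left out, 16 members were called with TBX2, all of them higher, in place of 7. With TBX3 replicate c left out, 9 members were called higher with TBX3, among them MT-ND6, MT-ND1 and MT-TC. With TBX5 replicate a left out, 11 were called higher with TBX5. For the settings with libraries left out, the share of all tested genes called is not given here. These counts therefore have no background beside them and are not read as particular to the members. When the library farthest from its own group was left out of both the TBX group and EV, the counts were 6 lower with TBX2, 10 higher with TBX3, 3 higher and 13 lower with TBX4, and 11 higher with TBX5. This setting was added after the data had been seen. In it MT-ND6 and MT-ATP8 fell with TBX2 (log2 fold change -0.48 and -0.46, adjusted p = 0.00617 and 0.00215), where they lay at 0.13 and 0.04 with all libraries.

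These libraries also differed in ENSG00000266658. It took 12.4% of all counts in EV replicate c, 10.7% in TBX3 replicate c and 13.2% in TBX4 replicate a, and 22.5% in TBX5 replicate a beside 53.5% and 52.7% in the other 2 TBX5 libraries. TBX2 replicate b, at 28.2%, lay between replicate a (19.6%) and replicate c (40.5%). The relation of this share with the outside-scale level was computed across the 18 libraries, on log2 values, for 4 members chosen after their values had been seen. The p-values are adjusted over these 4 and do not cover that choice. No relation was computed for the other tested members, so whether MT-ND6 stands apart from them was not tested. For MT-ND6 Pearson's r was 0.89 and Spearman's rho 0.93, each with a permutation p of 1e-05, the smallest the 100000 permutations can give (adjusted over 4 relations, 4.00e-05). With the 2 libraries whose share lay farthest from the median left out, r was 0.83. Within groups, with values centred on group means and permuted inside each group, r was 0.90 (permutation p = 0.00723, adjusted p = 0.0289). On the outside scale MT-ND6 was thus higher where ENSG00000266658 took more counts, inside groups as well as between them. That scale leaves ENSG00000266658 out of its total, and the relation on the all-count scale was not computed. There MT-ND6 stood at 102 CPM in TBX3 replicate c (10.7%), 215 in EV replicate b (34.7%) and 163 in TBX5 replicate b (53.5%).

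For MT-CO1 r was 0.55 and rho 0.40 (permutation p = 0.0167 and 0.0971, adjusted p = 0.0334 and 0.194). It was 0.60 within groups (permutation p = 0.0494, adjusted p = 0.0817), and it rests on 2 libraries, since without the farthest 2 it was 0.21. For MT-RNR1 r was -0.06 and rho -0.01 (permutation p = 0.821 and 0.960, adjusted p = 0.821 and 0.960), and -0.10 within groups (permutation p = 0.672, adjusted p = 0.672). For MT-RNR2 r was 0.08 and rho 0.09 (permutation p = 0.747 and 0.737, adjusted p = 0.821 and 0.960), and 0.45 within groups (permutation p = 0.0613, adjusted p = 0.0817). Without the farthest 2 libraries r was -0.26 for MT-RNR1 and -0.39 for MT-RNR2. The part of this share in the called changes was not tested. In the TBX4 libraries, where MT-ND6 fell, it was 13.2%, 14.8% and 18.6%, below the 5 controls other than EV replicate c (30.3% to 40.2%).

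**Figure D4:**
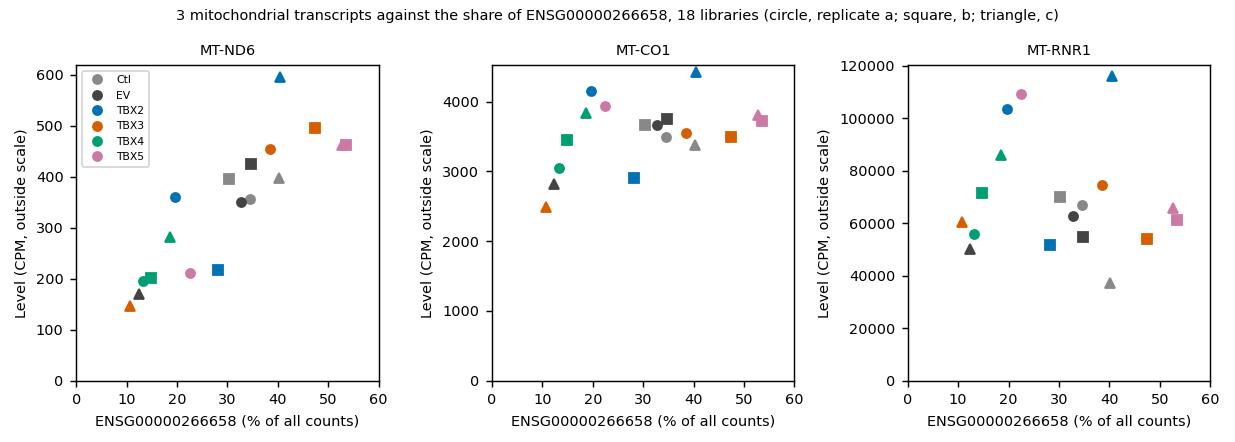
Levels of MT-ND6 (left), MT-CO1 (middle) and MT-RNR1 (right) in CPM on the outside scale (y axis) against the percent of all counts on ENSG00000266658 (x axis), for the 18 libraries coloured by group. MT-ND6 goes from 147 CPM at 10.7% to 463 CPM at 53.5% (Pearson's r of the log2 values 0.89), and MT-RNR1 shows no such slope (r = -0.06).

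The make-up of the mRNA pool also varied between libraries. MT-CO1 and MT-CO3 together took 27.9% of the mRNA counts in TBX2 replicate c and 41.5% in TBX4 replicate a. EV replicate c and TBX3 replicate c had 40.5% each, against 32.9% to 34.8% in the other 5 controls. MT-ND6 took 1.26% to 1.53% of the mRNA counts with TBX4, against 1.94 ± 0.323% in the controls (SD, n = 6). In EV replicate c its share was 1.35%, inside the range of TBX4.

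The 22 tRNAs together took 0.0258 ± 0.00127% of the counts outside the 3 abundant genes in the controls (SD, n = 6), where the highest library had 0.0275%. On this scale the 3 TBX4 libraries had 0.0295% to 0.0340% and the 3 TBX5 libraries 0.0291% to 0.0352%, above every control. TBX2 (0.0247% to 0.0365%) and TBX3 (0.0235% to 0.0301%) overlapped the controls. The tRNA sum as a share of all counts is not given here. On the all-count scale MT-TC stood at 69.8, 41.3 and 38.4 CPM with TBX5, against 37.5 to 59.4 in the controls. MT-TP stood at 70.8, 29.2 and 32.6 CPM, against 40.5 to 73.7. For these tRNAs, which held the most counts, TBX5 replicates b and c thus did not lie above the controls on that scale. The tRNA genes held few reads, and the values below rest on 99 to 865 counts per library for MT-TC, MT-TP and MT-TY and on 4 to 54 for MT-TN, MT-TE and MT-TH. Of the 10 tested tRNAs 5 rose with TBX2, 3 with TBX4 and 4 with TBX5, and none fell. The share of all tested genes called higher was 17.0%, 6.97% and 6.55%. On the all-count scale 0 were called with TBX2, 4 rose with TBX4 and 0 were called with TBX5, where the median log2 fold change of the 10 was 0.10, with 3 below 0, in place of 0.39. The median of all genes with TBX5 was -0.31 on that scale. Relative to the median of all genes, that of the 10 tRNAs was 0.39 with TBX2, 0.23 with TBX4 and 0.41 with TBX5. Under TMM these values were 0.39, 0.23 and 0.40. All 5 tested tRNAs of the minus strand were called in at least 1 of these comparisons, and 2 of the 5 on the plus strand. The share of all tested genes called in at least 1 comparison was not computed, and with TBX2 alone 32.6% were called. Counting did not use strand, and a difference between the strands was not tested.

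MT-TC, the cysteine tRNA, ran from 80.6 to 96.5 CPM in the controls on the outside scale, with a median of 88.4. With TBX4 it stood at 112, 112 and 121 CPM and with TBX5 at 122, 117 and 108, above every control in all 6 libraries. Groups did not overlap for 12.6% of all tested genes with TBX4 and for 13.7% with TBX5 on this scale. Of the 25 members, MT-RNR2, MT-TC and MT-TP were higher without overlap with TBX4, and MT-TC, MT-TE and MT-CYB with TBX5. None stood apart with TBX2 or TBX3, where 24.3% and 14.8% of all tested genes did. On the all-count scale MT-RNR2, MT-TC, MT-TY and MT-CO1 were higher without overlap with TBX4 (11% of all tested genes), MT-TL1, MT-CO3 and MT-ND3 lower with TBX3 (1.30%), MT-ND3 lower with TBX5 (5.80%), and none with TBX2 (7.40%). It rose by a log2 fold change of 0.36 ± 0.06 with TBX4 (SE, adjusted p = 0.000383) and of 0.39 ± 0.07 with TBX5 (adjusted p = 0.000846). Neither call was lost when any 1 library was left out. On the all-count scale TBX5 gave 0.08 (adjusted p = 0.822) and TBX4 0.62 (adjusted p = 0.00137), beside medians of -0.31 and 0.25 over all genes. With TBX2 it stood at 136, 84.6 and 116 CPM and rose by 0.31 ± 0.10 (adjusted p = 0.0220), a call lost without TBX2 replicate a (0.15, adjusted p = 0.321) and on the all-count scale (adjusted p = 0.388). With TBX3 the values were 117, 84.0 and 79.7 CPM, with a log2 fold change of 0.13 ± 0.09 (adjusted p = 0.425).

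MT-TP, the proline tRNA, rose with TBX4 and was not called with the other 3. It ran from 86.6 to 107 CPM in the controls (median 96.3) and stood at 109, 122 and 129 with TBX4, above every control on the outside scale. The log2 fold change was 0.28 ± 0.07 (SE, adjusted p = 0.0108), and no left-out library ended the call. In TBX2 it lay at 120, 86.1 and 120 CPM, with TBX3 at 102, 73.2 and 92.8, and with TBX5 at 124, 83.1 and 91.9. These log2 fold changes were 0.13, -0.06 and 0.05, and none passed. Whether the TBX groups differ among each other is a separate test, and MT-TP did not pass it (edgeR, adjusted p = 0.166). TBX4 against the other TBX groups was not tested.

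MT-TY, the tyrosine tRNA, ran from 28.8 to 35.9 CPM in the controls (median 32.3). With TBX2 it stood at 48.7, 31.4 and 50.6 CPM and with TBX5 at 50.8, 40.8 and 34.8, so that 1 library of each group lay within the range of the controls. It rose by 0.38 ± 0.12 with TBX2 (log2, SE, adjusted p = 0.0266) and by 0.40 ± 0.11 with TBX5 (adjusted p = 0.0246). With TBX2 the call was lost without replicate a (adjusted p = 0.189) or c (adjusted p = 0.192), and with TBX5 without replicate a (adjusted p = 0.293). On the all-count scale neither passed, at 0.39 with TBX2 (adjusted p = 0.304) and 0.11 with TBX5 (adjusted p = 0.770), and against Ctl alone neither did (adjusted p = 0.121 and 0.116). With TBX4 it stood at 36.3, 33.4 and 40.7 CPM and with TBX3 at 31.4, 28.5 and 29.2, with log2 fold changes of 0.16 ± 0.09 and -0.07 ± 0.10.

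MT-TN, the asparagine tRNA, ran from 3.37 to 6.36 CPM in the controls (median 4.35). The 3 Ctl libraries (3.80, 3.37 and 4.34 CPM) lay below the 3 EV libraries (4.37, 6.36 and 5.81), a difference that did not pass (log2 0.53 ± 0.24, adjusted p = 0.493). With TBX2 it stood at 8.08, 5.76 and 7.45 CPM, and with TBX4 at 8.26, 5.76 and 8.32. It rose by 0.53 ± 0.22 with TBX2 (log2, SE, adjusted p = 0.0766) and by 0.62 ± 0.19 with TBX4 (adjusted p = 0.0445). Against the EV controls alone neither held, at 0.30 (adjusted p = 0.385) and 0.38 (adjusted p = 0.317), and the TBX2 call was also lost on the all-count scale (adjusted p = 0.309), under DESeq2 (adjusted p = 0.130) and with no filter (adjusted p = 0.127). The TBX4 call was lost without TBX4 replicate a (adjusted p = 0.198) or c (adjusted p = 0.163). The TBX2 call was lost without TBX2 replicate a or c, Ctl replicate a, b or c, or EV replicate a, with adjusted p from 0.109 to 0.280. With TBX3 it stood at 4.13, 5.96 and 7.21 CPM and with TBX5 at 8.80, 4.61 and 5.98, and neither passed.

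MT-TL1, a leucine tRNA, ran from 12.7 to 18.2 CPM in the controls (median 14.4) and stood at 18.7, 16.1 and 27.3 with TBX2. It rose by 0.42 ± 0.15 (log2, SE, adjusted p = 0.0410), a call lost without TBX2 replicate c (0.20, adjusted p = 0.381). MT-TE, the glutamate tRNA, held 4 to 24 counts per library. It stood at 3.69, 2.38 and 6.52 CPM with TBX2 and at 3.74, 5.00 and 4.22 with TBX5, against 1.48 to 3.08 in the controls. It rose by 0.73 ± 0.32 with TBX2 (adjusted p = 0.0996) and by 0.85 ± 0.30 with TBX5 (adjusted p = 0.0815). The TBX2 call was lost without TBX2 replicate a or c, Ctl replicate a or EV replicate a or c (adjusted p from 0.134 to 0.561). The TBX5 call was lost without TBX5 replicate b or c, Ctl replicate a or EV replicate a or c (adjusted p from 0.113 to 0.231). Of 10 other settings the call of MT-TE held in 1 with TBX2 and in 3 with TBX5, and on the all-count scale the values were 0.74 (adjusted p = 0.220) and 0.54 (adjusted p = 0.368). MT-TL1 did not pass on that scale either (adjusted p = 0.302), nor against Ctl alone (adjusted p = 0.200).

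MT-TH, the histidine tRNA, rose with TBX5 by 0.98 ± 0.32 (log2, SE, adjusted p = 0.0589), the largest among the called members. Its 3 TBX5 libraries stood at 3.3, 9.23 and 3.87 CPM against 1.97 to 3.49 in the controls, on 24 or fewer counts each. The call was lost without TBX5 replicate b (0.45, adjusted p = 0.483) and without EV replicate c (0.90, adjusted p = 0.101), on the all-count scale (0.66, adjusted p = 0.306), against EV alone (adjusted p = 0.133) and against Ctl alone (adjusted p = 0.183). MT-TV, MT-TT and MT-TS2 passed no test, with log2 fold changes from -0.40 to 0.71 and standard errors of 0.26 to 0.52.

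**Figure D5:**
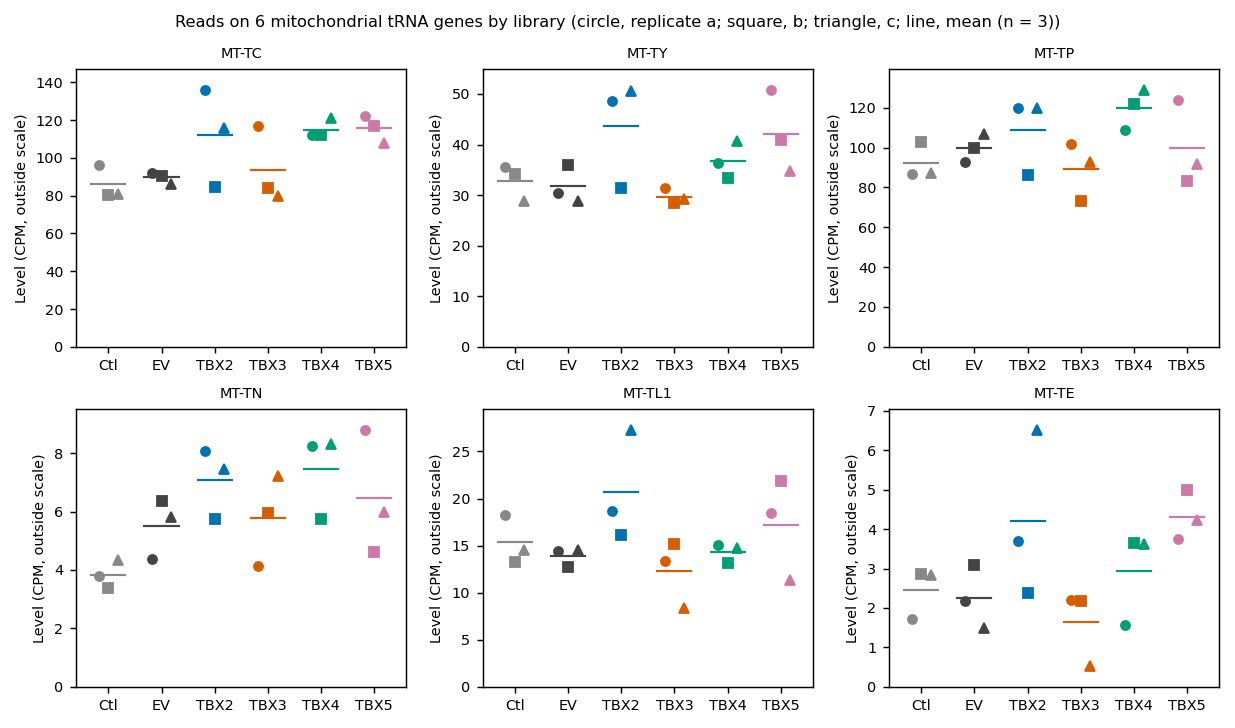
Reads on 6 mitochondrial tRNA genes (y axis, CPM on the outside scale, each panel with its own range from 0) in each of the 18 libraries by group. Points are libraries and lines are means of 3; all 6 TBX4 and TBX5 libraries of MT-TC lie at 108 to 122 CPM, above the 80.6 to 96.5 of the controls.

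The second comparison asked whether members differed among the 4 TBX groups, in 1 fit of all 18 libraries. MT-TL1, MT-TY and MT-TE passed, with adjusted p of 0.0702, 0.0636 and 0.0760, which is 12.0% of the tested members. Over all tested genes 22.7% passed. MT-TL1 stood at 20.7 ± 5.88 CPM with TBX2 and 12.3 ± 3.50 with TBX3 (outside scale, SD, n = 3). MT-TY stood at 43.6 ± 10.6 with TBX2, 42.1 ± 8.09 with TBX5, 36.8 ± 3.70 with TBX4 and 29.7 ± 1.5 with TBX3. MT-TE was at 4.20 ± 2.11 with TBX2, 4.32 ± 0.634 with TBX5, 2.94 ± 1.2 with TBX4 and 1.63 ± 0.949 with TBX3. In all 3 the TBX3 group was the lowest. No mRNA or rRNA passed, the smallest adjusted p among them being 0.265 for MT-ND6. MT-TL1 no longer passed without TBX2 replicate c (adjusted p = 0.223), TBX3 replicate c (0.206) or TBX4 replicate b (0.108). MT-TY no longer passed without TBX2 replicate a or c, any TBX3 library or TBX5 replicate a (adjusted p from 0.102 to 0.187). MT-TE no longer passed without TBX2 replicate a or c, TBX3 replicate c or TBX5 replicate b or c (adjusted p from 0.101 to 0.425).

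The third comparison set EV against Ctl, the 2 kinds of control. No member passed edgeR's test or DESeq2's, 2 of 25 had an unadjusted p under 0.05 in edgeR, and 0.385% of all tested genes passed. The mRNAs had a median log2 fold change of -0.11, with 12 of 13 below 0, and standard errors of 0.07 to 0.17. On the all-count scale 9 of 13 lay above 0. MT-ND6 and MT-ATP8 lay lowest among the mRNAs, at -0.30 ± 0.17 and -0.31 ± 0.15 (adjusted p = 0.620 and 0.540).

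Nuclear genes that serve the mitochondrial chromosome were taken from 4 lists. Of 10 genes for its transcription all were tested, and with edgeR's test TFAM rose with TBX2 (0.21 ± 0.07 log2, adjusted p = 0.0235), while MTERF1, a termination factor, rose with TBX4 (0.28 ± 0.09, adjusted p = 0.0499). No other gene of this list was called with any TBX, and POLRMT rose in EV against Ctl (0.38 ± 0.09, adjusted p = 0.0746). These genes were named after their values were seen. The list thus had 10% of its genes called with TBX2, 10% with TBX4 and 0% with TBX3 and TBX5, beside 32.6%, 13%, 14.9% and 12.7% of all tested genes. For TBX2 and TBX4 the median log2 fold change of the list was 0.08 and 0.06, and for TBX3 and TBX5 it was -0.01 and -0.02, beside about 0 over all genes.

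Of 20 genes for mitochondrial RNA processing and stability 19 were tested, and 3 rose and 3 fell with TBX2, 1 rose and 3 fell with TBX3, 1 rose with TBX4, and 1 rose and 1 fell with TBX5. These were 31.6%, 21.1%, 5.26% and 10.5% of the list, beside 32.6%, 14.9%, 13% and 12.7% of all tested genes. The members outside the naming rule were, with TBX2, PNPT1, FASTKD2 and FASTKD3 higher and REXO2 lower, with TBX3, LRPPRC and GRSF1 lower, and with TBX4, FASTKD1 higher (log2 fold change 0.49, 0.28, 0.27, -0.26, -0.19, -0.21 and 0.36), named after their values were seen. SLIRP, which with LRPPRC stabilises mitochondrial mRNAs, stood at 123 ± 7.58 CPM in the controls (outside scale, SD, n = 6) and at 105 ± 7.21 with TBX2 and 104 ± 8.15 with TBX3 (SD, n = 3). It fell by 0.26 ± 0.07 and 0.18 ± 0.06 (log2, SE, adjusted p = 0.00757 and 0.0711). TBRG4, also known as FASTKD4 and tied to mitochondrial mRNA stability, fell with TBX2 (-0.37 ± 0.08, adjusted p = 0.00189) and TBX5 (-0.22 ± 0.07, adjusted p = 0.0679). PTCD1, a pentatricopeptide protein of mitochondrial RNA, rose with TBX3 (0.49 ± 0.14, adjusted p = 0.0277) and TBX5 (0.51 ± 0.16, adjusted p = 0.0559).

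Of 14 genes for replication of mitochondrial DNA and its nucleotide supply, 1 rose and 1 fell with TBX2, none changed with TBX3, 1 fell with TBX4, and 2 rose and 1 fell with TBX5. SLC25A33, a pyrimidine nucleotide carrier, fell with TBX2 (-0.39 ± 0.10, adjusted p = 0.00626), TBX4 (-0.24 ± 0.09, adjusted p = 0.0972) and TBX5 (-0.39 ± 0.12, adjusted p = 0.0427). POLG2, the accessory subunit of the mitochondrial DNA polymerase and named after its value was seen, rose with TBX5 (0.40 ± 0.10, adjusted p = 0.0127). RRM2B, a ribonucleotide reductase subunit, rose with TBX2 (0.20 ± 0.07, adjusted p = 0.0298) and TBX5 (0.28 ± 0.07, adjusted p = 0.00979). On the all-count scale SLC25A33 lay at 0.02 with TBX4 and RRM2B at -0.03 with TBX5, beside medians of 0.25 and -0.31 over all genes. Of 8 regulators of mitochondrial biogenesis, 1 rose with TBX2, 3 rose with TBX3, 1 fell with TBX4 and 1 rose with TBX5. TFE3, a transcription factor of lysosomal and mitochondrial genes, rose with TBX2 (0.39 ± 0.08, adjusted p = 0.00119) and TBX3 (0.26 ± 0.08, adjusted p = 0.0268). For the calls of SLIRP, TBRG4, PTCD1, SLC25A33, RRM2B and TFE3, 58 of 260 alternative values lost the call and 2 changed sign. PPRC1 and GABPB1 rose with TBX3 (0.27 and 0.20), PPARGC1A, a coactivator of mitochondrial biogenesis, fell with TBX4 (-0.52) and GABPA rose with TBX5 (0.30), all named after their values were seen. These lists had 14.3%, 0%, 7.14% and 21.4% of their genes called for replication and 12.5%, 37.5%, 12.5% and 12.5% for biogenesis with TBX2 to TBX5, beside 32.6%, 14.9%, 13% and 12.7% of all tested genes.

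Nuclear copies of mitochondrial genes can draw reads from the members or give reads to them. Of 394 such genes 195 had at least 1 count and 19 passed the filter. Their counts summed to 302 to 1125 per library, or 0.557% to 1.10% of those on the 13 mRNAs. Of the 19, 3 rose with TBX2 (MTND2P2, MTND2P28 and MTRNR2L1), 1 rose and 1 fell with TBX4 (MTRNR2L6 and MTCO1P47), and none changed with TBX3 or TBX5. These were 15.8% of the 19 with TBX2 and 10.5% with TBX4, beside 32.6% and 13% of all tested genes. Reads placed on more than 1 site are not counted under the default, so these values and those of near-identical members are uncertain.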

How the data were processed

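RNA-seq was made from 18 NCI-H1299 libraries in 6 groups of 3. Reads, sequenced from both ends, were placed on GRCh37 by the authors with STAR 2.3.0, and they deposited raw read counts per Ensembl gene from featureCounts at its default settings, with no normalization or filter. Groups came from the sample labels, by the sample number where a label named 2 plasmids. The members and the gene lists were chosen with earlier results of these data known.

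Each TBX was compared with the 6 pooled controls in a separate fit, EV with Ctl, and the 4 TBX groups in 1 fit, with edgeR 4.0.16 (quasi-likelihood, TMM, R 4.3.3). P-values were adjusted by Benjamini-Hochberg over the 15576 genes exceeding 5 counts in 10 or more libraries, at an FDR of 0.1. Standard errors were obtained by dividing the size of the log2 fold change by the root of the F statistic. Exact permutation tests used scipy 1.17.1. The models were run on simulated counts with known changes and the same spread for every gene. The simulation held no stray libraries and no swing in ENSG00000266658, so it does not cover these features of the data. Alternatives were DESeq2 1.42.0, its size factors, both count scalings, 2 other filters, the replicate letter as a block, EV or Ctl alone, 1 joint fit, an FDR of 0.05 and each library left out, with the farthest library of each group left out added after seeing the data. All 37 members matched the GRCh37 annotation by Ensembl ID. Named genes were all mRNAs and rRNAs, tRNAs past the filter, and up to 6 genes per nuclear list called the same way with at least 2 TBXs.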

Additional observations from a re-analysis of the deposited data

Results flagged for a closer look

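Among the 6 controls, 11 of 27 values had their highest or lowest library far from the other 5 (the gap to the nearest over the whole range above the critical value for 6 samples), and chance alone gives about 1 in 20. In 9 of these, EV replicate c was the lowest, on the outside scale: MT-ND1 at 833 CPM, MT-CO2 at 1446, MT-ATP8 at 79.7, MT-ATP6 at 737, MT-CO3 at 2269, MT-ND4 at 1355, MT-ND5 at 1271, MT-ND6 at 170, and the share of the 13 mRNAs at 1.26%. These 9 values come from 1 library and are not independent. Ctl replicate a had the highest MT-TL1, at 18.2 CPM, and Ctl replicate c the highest ratio of MT-RNR2 to MT-RNR1, at 6.80.

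The 4 TBX groups differed from each other, in edgeR's test of the difference itself, for MT-TL1 (adjusted p = 0.0702), MT-TY (adjusted p = 0.0636) and MT-TE (adjusted p = 0.0760).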

How the results depend on the processing

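Against 7 members called with TBX2, 0 with TBX3, 5 with TBX4, 5 with TBX5, 0 for EV against Ctl and 3 among the TBX groups, scaling by all counts gave 1 with TBX2, 0 with TBX5 and 0 among the groups. EV controls alone gave 4 with TBX2 and 3 with TBX4, and Ctl controls alone 3, 1, 14 and 2 with TBX2 to TBX5. DESeq2 gave 1 with TBX3 and 3 with TBX5. No filter gave 1 with TBX3, 13 with TBX4, 2 for EV against Ctl and 17 among the groups, on 37 members. Scaling by outside counts gave 1 with TBX3. A fit of all libraries gave 3 with TBX4 and 3 with TBX5, at least 10 counts in every library 2 with TBX5 (21 members tested), and an FDR of 0.05 gave 2 with TBX5 and 0 among the groups. The farthest library of each group left out, added after seeing the data, gave 10 with TBX3, 16 with TBX4, 11 with TBX5 and 14 among the groups, and turned MT-ATP8 (-0.46, adjusted p = 0.00215), MT-ATP6 (-0.36, adjusted p = 0.0403) and MT-ND6 (-0.48, adjusted p = 0.00617) with TBX2. Leaving out 1 library gave 2 to 16 with TBX2, 0 to 9 with TBX3, 3 to 15 with TBX4, 2 to 11 with TBX5, 0 to 0 for EV against Ctl and 0 to 9 among the groups. Scaling by all counts changed the sign of SLC25A33 with TBX4 (0.02, adjusted p = 0.944) and RRM2B with TBX5 (-0.03, adjusted p = 0.937). The median of all genes was then 0.25 with TBX4 and -0.31 with TBX5. SLC25A33 lay below that median and RRM2B above it, as under TMM. The cause of these shifts was not tested. Of 2330 alternative member values 96 lost a call and 119 gained one. The shares of all tested genes called under these settings are not given here, so the counts have no background beside them. The log2 difference of the rRNA ratio ran, with 1 library left out, from -0.86 to -0.26 with TBX2, -0.28 to -0.02 with TBX3, -0.35 to 0.02 with TBX4, -0.47 to -0.02 with TBX5 and -0.24 to 0.30 for EV against Ctl.

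With the replicate letter as a block, 6 members were called with TBX2, 1 with TBX3, 4 with TBX4, 6 with TBX5, 0 for EV against Ctl and 3 among the groups. No source says what libraries of the same letter share. Deviations of same-letter libraries correlated at a mean of 0.00043 over 45 pairs (-0.101 to 0.16), beside -0.000185 over 90 pairs of different letters. Depth limits the 12 tRNAs below the filter and MT-TE and MT-TH, on at most 24 counts.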
